A study of Mus musculus with 40 samples.

Results

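Label-retaining haematopoietic stem cells (HSCs) from mice labelled HIRA KO and WT were compared here, 3 libraries against 3, out of 40 libraries in 12 groups in the whole series. The cells were bone marrow HSCs that kept a high level of H2B-GFP after the label had been chased, called GFP-high HSCs below. Levels are in FPKM, fragments per kilobase of transcript scaled for library depth. A gene entered the comparison when its level was 1 FPKM or more in at least 3 of the 6 libraries. This kept 10850 of the 16488 genes in the table. The mice were C57BL/6, and the labels call the groups WT and HIRA KO. The protocol describes Mx1-Cre, Hira fl/fl, Rosa26-M2rtTA, TetOP-H2B-GFP animals and does not say which of these alleles the WT mice carried. H2B-GFP was induced for 6 weeks with doxycycline at 2 mg/ml in drinking water containing 10 mg/ml sucrose. Doxycycline was then withdrawn and 2 doses of 20 µg of poly(I:C) were injected to induce Cre. The chase lasted 17 days, and the mice were killed for sorting by GFP level when 15 days had passed since the second injection. Mx1-Cre is switched on by interferon, so it acts in every interferon-responsive cell and not in HSCs alone, and the age of the mice was not given. The series' design text calls the 3 libraries of each group biological replicates. In bulk libraries of sorted cells, fewer cells of a type and less RNA per cell cannot be told apart.

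The histone variant H3.3 can be placed in nucleosomes independently of replication by a complex of HIRA with UBN1 or UBN2 and CABIN1. ASF1A delivers the histone to this complex. The canonical histones H3.1 and H3.2 are instead placed behind the replication fork by the CAF-1 complex, whose large subunit is Chaf1a. A pulse of H2B-GFP is diluted at each division, so cells that keep the label have divided little, and HSCs that keep it are the most quiescent of the marrow's stem cells.

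The reads recovered from the FPKM values came to 7937155, 8027307 and 6863583 in the WT libraries and to 6531028, 6639415 and 6492900 in the KO libraries, so each KO library was shallower than each WT library. Hira stood at 3.22, 1.93 and 1.69 FPKM in the WT libraries and at 1.58, 2.06 and 1.58 FPKM in the libraries labelled KO. The groups overlapped: one KO library was above 2 of the 3 WT libraries. The log2 difference was -0.23 (95% interval -0.67 to 0.20, limma adjusted p = 0.73), and it was -0.04 without WT replicate 1 and -0.36 without WT replicate 3. An exact two-sided permutation test gave p = 0.5 where the smallest p that 3 against 3 allows is 0.1. The value of a gene covers all its exons, so it does not show whether a floxed part is missing, and the libraries are called KO below by their label alone. The 10 HSC markers fixed for this check, among them Kit, Slamf1, Procr, Hlf and Mecom, were at 1 FPKM or more in every library. Markers of B cells (Cd79a, Pax5), T cells (Cd3d, Cd3g) and stroma (Cxcl12, Col1a1, Cdh5) stayed below 3 FPKM in every library. Neutrophil RNA was abundant in all 6, with S100a8 between 1922 and 3274 FPKM. KO replicate 2 stood apart in sex: it had 0.237 FPKM of Xist against 30.8 to 34.8 FPKM in the other 5 libraries, and 5.28 FPKM of the Y-linked Ddx3y. The same replicate stood apart in the same way in the other GFP-sorted populations used below, with 0.403 FPKM of Xist in GFP-low HSCs and 0.311 FPKM in GFP-high multipotent progenitors. Counts of the lists described below are therefore also given without it.

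3 of the 10850 genes passed the test at an adjusted p under 0.05 (0.0276%), all higher in KO: Ptgds, Prtn3 and Mir6999. Ptgds, which encodes the lipocalin-type prostaglandin D synthase, was at 1.30, 1.71 and 1.71 FPKM in WT and at 4.64, 5.04 and 5.11 FPKM in KO. Every KO library was above every WT library, although the gene was low in both groups. Ptgds rose by 1.21 on the log2(FPKM + 1) scale (SE 0.14, adjusted p = 0.0383), from 27, 36 and 31 reads to 78, 90 and 87. Prtn3 encodes proteinase 3, a serine protease that myeloid progenitors pack into granules. It stood at 165, 185 and 171 FPKM in WT and at 285, 309 and 288 FPKM in KO, a rise of 0.76 log2 (SE 0.09, adjusted p = 0.0383) between groups that lay far apart. Each of these calls was lost when any 1 of the 6 libraries was left out: the adjusted p then ranged from 0.0984 to 0.195 for Ptgds and from 0.116 to 0.195 for Prtn3. Both calls were also lost with no filter on level (adjusted p = 0.125 for Ptgds and 0.111 for Prtn3). Without KO replicate 2, no gene passed limma's test, with 1037 at an unadjusted p under 0.05. With all 6 libraries that number was 1124 (10.4%), of which 612 were higher in KO (5.64% of the genes tested) and 512 lower (4.72%).

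The call of Mir6999 rested on 1 read in each KO library and none in any WT library, over a gene of 61 bases at chr2:91944870-91944930 (minus strand). No fold is given, because both groups were within what a count of 0 allows. The libraries were made from polyA RNA and do not measure the mature microRNA. The arms that this locus encodes are shown because the gene passed the test, with the seed (bases 2 to 8) in capitals, from RefSeq on GRCm38.p6.
mmu-miR-6999-5p: aAGGAAGGagagucagcaagcac
mmu-miR-6999-3p: cUUCAGCUguccuccuuucugu
When genes also needed 10 or more reads in at least 3 libraries, Ptgds and Prtn3 passed (adjusted p = 0.0413 for each) and Mir6999 was no longer tested.

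Gstm2, a glutathione S-transferase of the mu class, came next. It was at 4.74, 4.33 and 5.05 FPKM in WT and at 10.2, 15.2 and 16.7 FPKM in KO with no overlap. Its difference was 1.37 log2 (SE 0.18, adjusted p = 0.0528). It passed without KO replicate 1 (adjusted p = 0.0235), with array quality weights (0.0445) and when only genes at 5 FPKM or more were tested (0.0493). It did not pass without any other library (0.114 to 0.203), with no filter (0.218) or in a joint fit with GFP-low HSCs (0.243). Gstm2 lies in a cluster of near-identical mu-class genes on chromosome 3, so reads may be shared with its neighbours. Other genes with small p values and higher KO levels did not pass: Dok2, an adaptor that dampens receptor tyrosine kinase signalling, was at 26.7, 17.0 and 27.4 FPKM in WT and 46.8, 47.2 and 69.5 FPKM in KO (adjusted p = 0.145). Gmfg, a regulator of actin branching in blood cells, was at 30.5, 25.1 and 26.1 against 42.1, 48.7 and 42.1 FPKM. Klk8, B3galt4, Exoc3l and the transcript 5033406O09Rik had the same arrangement, with differences of 0.62, 0.70, 0.76 and 0.66 log2 and no overlap of the groups.

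**Figure D1:**
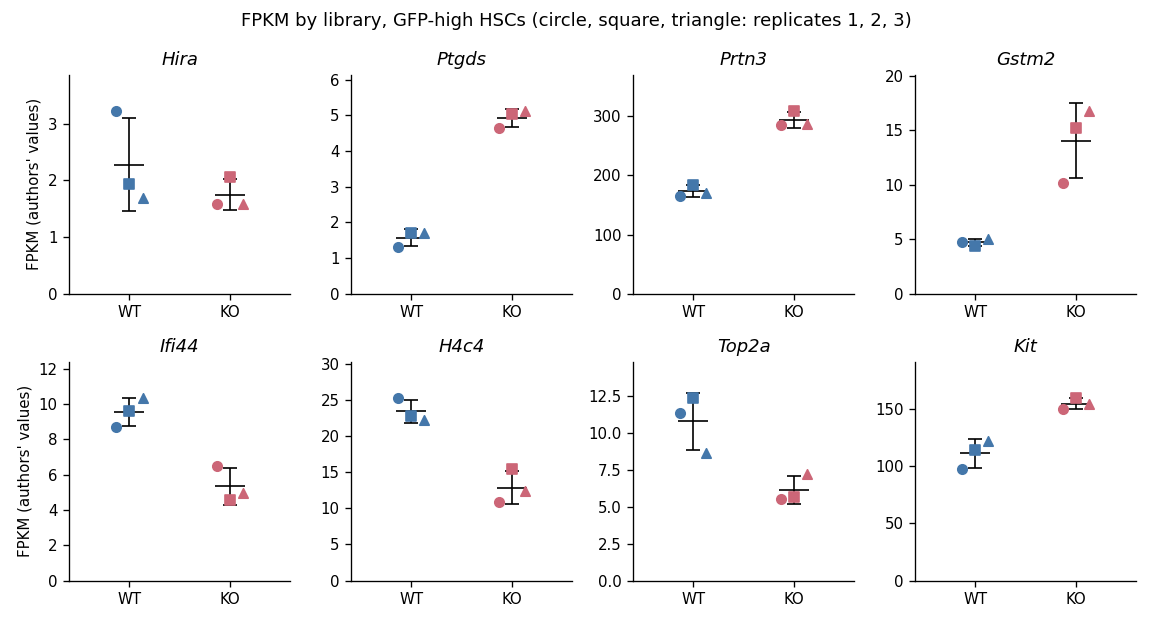
FPKM of 8 genes in each GFP-high HSC library, WT in blue and KO in red, on linear axes that start at 0; horizontal bars are means and error bars the SD of 3 libraries. Ptgds, Prtn3, Gstm2 and Kit are higher in every KO library, Ifi44, H4c4 and Top2a are lower in every KO library, and Hira overlaps between the groups.

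On the lower side no gene passed. Nenf, which encodes the secreted protein neudesin, was at 54.7, 53.4 and 51.6 FPKM in WT and at 37.2, 32.6 and 31.6 FPKM in KO (-0.64 log2, adjusted p = 0.107). Scpep1, a serine carboxypeptidase, was at 12.6, 14.7 and 14.2 against 7.80, 6.78 and 8.46 FPKM (-0.78 log2, adjusted p = 0.107). The groups were well separated for both genes. S100a4, Cd52 and Lars2, a mitochondrial leucyl-tRNA synthetase, had differences of -0.54, -0.59 and -0.82 log2 with adjusted p values of 0.145, 0.195 and 0.195. The other genes in the lower group of smallest p were histone, interferon-response and neutrophil genes, described below with their lists.

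The genes of the HIRA pathway itself differed little. UBN1, UBN2 and CABIN1 make up the HIRA complex with HIRA, and their genes differed by -0.03, -0.01 and 0.11 log2. Of the 23 members of a list of H3.3 genes and histone chaperones, 17 were below 0 and none passed the test, with a median of -0.10 log2, where 50.4% of all genes tested were below 0 and the median was -0.00. Leaving out KO replicate 2 left 15 below 0 with a median of -0.04, without KO replicate 3 the median was -0.18, and after rescaling to one FPKM total 14 were below 0 with a median of -0.02. H3f3a and H3f3b encode the same H3.3 protein. H3f3a stood at 62.0, 65.3 and 69.4 FPKM in WT and at 79.6, 81.1 and 93.9 FPKM in KO, 0.36 log2 higher without overlap (adjusted p = 0.303). H3f3b, the more abundant of the pair, was at 243 to 283 FPKM in WT and 251 to 280 FPKM in KO, a difference of -0.03 log2. Asf1a, the chaperone that hands H3.3 to HIRA, was at 7.30, 8.62 and 6.71 against 8.08, 10.7 and 9.94 FPKM, and its groups overlapped. On the side of replication-coupled deposition, Chaf1a was at 3.11, 3.54 and 3.11 FPKM in WT and at 1.97, 1.69 and 2.30 FPKM in KO (-0.51 log2, adjusted p = 0.286). Dek, a chromatin protein that binds H3.3, was lower in every KO library (-0.37 log2, adjusted p = 0.283). Atrx and Daxx form the other H3.3 chaperone, which works at repeats and telomeres, and they differed by -0.36 and 0.13 log2.

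Replication-dependent histone genes, which supply H1, H2A, H2B, H3.1, H3.2 and H4 during S phase, stood mostly on the lower side in KO. Of 64 genes listed, 38 passed the filter, 31 of these were below 0, and the median was -0.47 log2. No member passed the test. In 11 members every KO library was below every WT library (7.47% of all genes tested) and in 2 every KO library was above (8.61% of all genes tested). H4c4 was at 25.3, 22.8 and 22.3 FPKM in WT and at 10.9, 15.4 and 12.4 FPKM in KO (-0.83 log2, adjusted p = 0.122). H2ac8 was at 16.6, 26.8 and 18.5 against 10.9, 8.26 and 10.1 FPKM (-0.99 log2, adjusted p = 0.145). The linker histone gene H1f1 was low in both groups, at 3.44, 2.85 and 4.06 against 1.19, 0.623 and 1.44 FPKM (-1.11 log2, adjusted p = 0.137). These 3 genes had separate groups in the same direction, and H3c1, H4c14, H3c11, H2ac4, H2bc11, H1f4, H2ac10 and H1f5 did so as well. The exceptions were H1f2, at 11.4, 14.8 and 11.5 against 17.8, 22.5 and 17.8 FPKM, and H2bc4, at 9.22, 19.8 and 15.1 against 21.5, 20.0 and 31.3 FPKM. Most messages of these genes end in a stem loop and not in a poly(A) tail, so a polyA library holds a small and selected part of them, and near-identical copies can share reads. The count was 29 of 38 below 0 without KO replicate 2, with a median of -0.47. A stricter level filter, set at 5 FPKM, kept 10 members, 6 below 0 and 4 above, with a median of -0.47. The direction was thus less one-sided among these 10 more abundant members. The added filter on 10 reads kept 30 members, 25 below 0 and 5 above, with a median of -0.54.

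Genes of DNA replication and of mitosis were almost all lower in KO by small amounts, and none passed the test. Of 50 replication and S phase genes, 48 were below 0, with a median of -0.29 log2 and a range from -0.70 to 0.02. In 21 of them every KO library was below every WT library (7.47% of all genes tested), and in none were the KO libraries all above (8.61%). Orc6, a subunit of the origin recognition complex, was at 22.4, 23.7 and 21.6 FPKM in WT and at 16.6, 14.6 and 16.5 FPKM in KO (-0.49 log2, adjusted p = 0.2). Rpa1, the large subunit of the single-strand binding protein, was at 20.7, 19.8 and 18.6 against 14.1, 14.0 and 14.8 FPKM (-0.43 log2, adjusted p = 0.226). Both genes had tight groups that did not meet. Cdc45, a part of the replicative helicase, differed by -0.47 log2. Pcna, the sliding clamp, was at 79.1, 68.8 and 68.1 against 65.5, 52.4 and 65.1 FPKM (-0.24 log2, adjusted p = 0.532).

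Of 62 mitosis genes, 61 were below 0, with a median of -0.37 log2, and 16 had KO libraries all below WT libraries (7.47% of all genes tested). Top2a, the topoisomerase that untangles chromosomes before they separate, was at 11.3, 12.3 and 8.63 FPKM in WT and at 5.48, 5.67 and 7.18 FPKM in KO (-0.72 log2, adjusted p = 0.2). Mki67, the gene of the proliferation antigen Ki-67, was at 4.37, 4.51 and 3.21 against 2.17, 2.68 and 2.89 FPKM. Ccnb1, which encodes cyclin B1, was at 9.38, 9.61 and 6.98 against 3.28, 4.69 and 7.40 FPKM, and its groups overlapped through KO replicate 3. The mean log2(FPKM + 1) of the mitosis genes was 3.27, 3.51 and 3.18 in WT and 2.82, 2.86 and 3.20 in KO, and that of the replication genes was 4.03, 3.99 and 3.90 in WT and 3.58, 3.58 and 3.90 in KO. Replicate 3 of KO thus lay inside the WT range or at its edge, and replicates 1 and 2 lay below it. Without KO replicate 3 the medians were -0.49 for mitosis and -0.40 for replication. Without KO replicate 2 they were -0.33 and -0.25, with 58 of 62 and 45 of 50 members below 0. The regulators of entry into the cycle had no such direction: of 17 tested cyclin, CDK and Rb family genes of G1, 8 were below 0 and the median was 0.01, and without KO replicate 2 these were 8 and 0.02. Leaving out WT replicate 1 or 3 gave medians of 0.10 and -0.10.

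**Figure D2:**
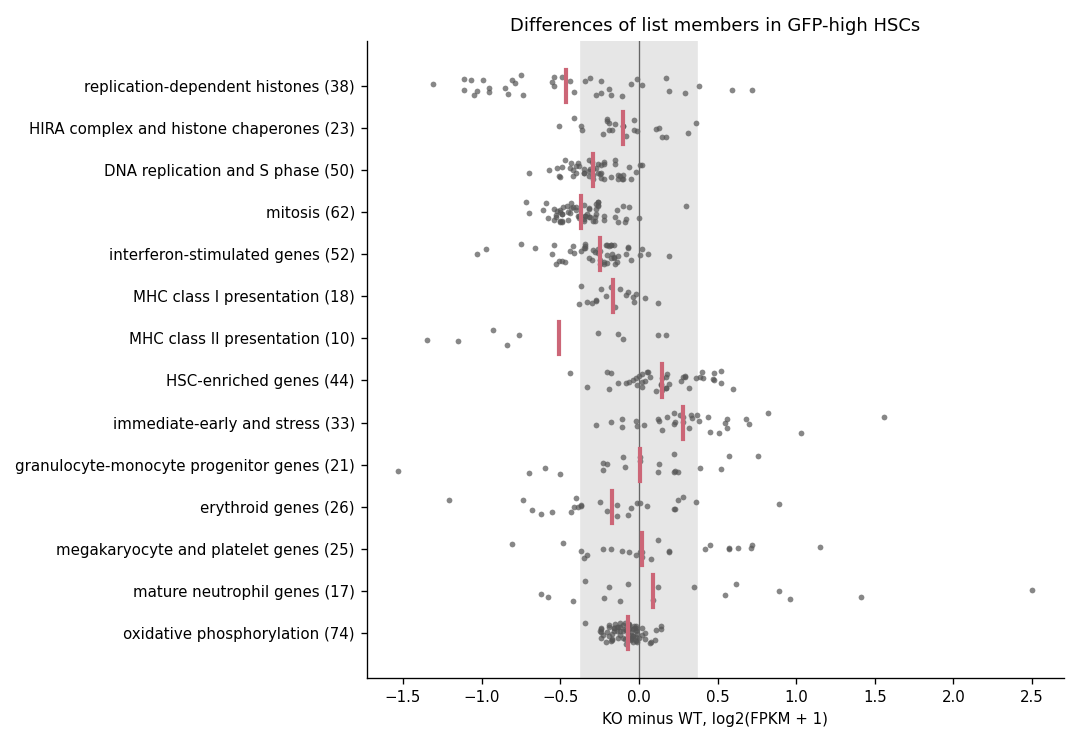
Difference KO minus WT on the log2(FPKM + 1) scale for each tested member (dots) of 14 gene lists, with the number tested in brackets and the list's median as a red bar; the grey band spans the central part of all genes tested, from the 5th to the 95th percentile. Replication, mitosis and interferon-stimulated genes lie almost wholly on the KO-lower side, and the replication-dependent histones spread from -1.31 to 0.72.

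E2F sites, the cell cycle genes homology region and the CCAAT box are known from promoters of cell cycle genes. A few stretches, chosen after the values were seen, are shown so that examples that hold such letters can be seen beside their values; most replication promoters searched did not hold an E2F site, and most mitosis promoters did not hold the homology region. Promoters were matched for 8711 of the 10850 genes (RefSeq, GRCm38.p6) and searched on both strands from 250 bases upstream to the base before the start. An E2F site, spelled TTTCCCGC, TTTGGCGC, TTTCGCGC or TTTGCCGC, was found in 8 of the 41 replication genes that had a promoter (19.5%) and in 3.68% of all genes. The cell cycle genes homology region is spelled TTTGAA or TTCGAA. It was found in 23 of 51 mitosis genes (45.1%), in 14 of 33 replication-dependent histone genes (42.4%) and in 12.4% of all genes. The same letters were in 11 of 40 interferon-stimulated promoters (27.5%) and in 7 of 41 replication promoters (17.1%), so they were not particular to cell cycle genes. The CCAAT box, spelled CCAAT, was found in 39 of the 51 mitosis genes (76.5%) and in 37.4% of all genes. Of the 33 histone promoters, 29 held CCAAT (87.9%) and 19 held the TATA box TATAAA (57.6%, against 6.14% of all genes). These are matches of letters in a window, and a window without them says nothing about the factor. For each list the 3 members with the smallest p whose window held the site are shown as stretches of 80 bases on the strand of the gene, 5′ to 3′. Members on a chromosome set aside from printing were left out of this choice. Capitals mark the E2F site in Pola1 (chrX:93632250-93632329, minus strand), Mcm5 (chr8:75109324-75109403, plus strand) and Mcm6 (chr1:128359709-128359788, minus strand), where overlapping sites run together.
Pola1: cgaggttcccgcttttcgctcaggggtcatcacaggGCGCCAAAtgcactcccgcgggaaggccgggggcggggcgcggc
Mcm5: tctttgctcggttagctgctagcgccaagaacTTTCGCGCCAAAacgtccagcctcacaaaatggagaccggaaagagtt
Mcm6: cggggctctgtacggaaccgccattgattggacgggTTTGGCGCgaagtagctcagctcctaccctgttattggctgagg
Pola1, the catalytic subunit of DNA polymerase alpha, stood at 9.62, 9.43 and 8.05 FPKM in WT and at 5.75, 6.87 and 7.37 FPKM in KO. Mcm5, a subunit of the replicative helicase, was at 50.6, 40.5 and 47.9 against 29.0, 32.3 and 43.0 FPKM. In Top2a (chr11:99024190-99024269, minus strand), Kif11 (chr19:37376302-37376381, plus strand) and Mki67 (chr7:135716435-135716514, minus strand) capitals mark the homology region and, in Top2a and Kif11, the CCAAT box, each read on either strand.
Top2a: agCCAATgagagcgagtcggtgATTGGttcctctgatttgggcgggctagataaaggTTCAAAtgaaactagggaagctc
Kif11: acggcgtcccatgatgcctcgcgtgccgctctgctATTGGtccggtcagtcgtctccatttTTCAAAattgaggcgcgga
Mki67: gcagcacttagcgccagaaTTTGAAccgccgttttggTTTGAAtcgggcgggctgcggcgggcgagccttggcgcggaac
Kif11, the motor that pushes spindle poles apart, was at 3.34, 3.46 and 2.59 FPKM in WT and at 2.27, 1.62 and 1.70 FPKM in KO, with no overlap.

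Interferon-stimulated genes were lower in KO as a group, again with no member past the test. Poly(I:C), a mimic of viral RNA, raises interferon and with it this set of genes, and the protocol does not say separately for each genotype that it was given. Of 52 members tested, 48 were below 0, the median was -0.25 log2, and 15 had KO libraries all below WT libraries (7.47% of all genes tested) against none all above (8.61%). Ifi44, an antiviral protein gene, was at 8.71, 9.61 and 10.3 FPKM in WT and at 6.51, 4.55 and 4.95 FPKM in KO (-0.75 log2, SE 0.14, adjusted p = 0.184). Oas3, a sensor of double-stranded RNA, was at 6.79, 5.55 and 7.71 against 3.52, 4.15 and 5.06 FPKM (-0.55 log2, adjusted p = 0.318). In both genes every KO library was below every WT library. Parp9, Ifit3, Xaf1 and Isg15 had separate groups as well, with differences of -0.53, -0.66, -0.42 and -0.35 log2. The most abundant members did not differ beyond their spread: Ifitm1 was at 883 to 1237 FPKM in WT and 871 to 1058 FPKM in KO, and Ifitm3 at 944 to 1066 and 871 to 1050 FPKM. Ifi27, an interferon-induced gene outside the list, was at 60.3, 76.0 and 71.8 against 37.6, 36.1 and 50.5 FPKM (-0.74 log2, adjusted p = 0.195). The mean log2(FPKM + 1) over the 52 genes was 3.63, 3.76 and 3.71 in WT and 3.47, 3.41 and 3.35 in KO, so the KO libraries were all below the WT libraries. When KO replicate 2 was left out, 46 of 52 were below 0 and the median was -0.26. When the libraries were rescaled to one FPKM total, which moved the median of all genes by 0.06 log2, the list's median was -0.18.

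The interferon-stimulated response element, spelled as GAAA, any 2 bases and GAAA again, was found in the 250 bases upstream of 17 of the 40 members with a promoter (42.5%) and of 238 of the 8711 genes (2.73%). It is marked in capitals in Ifit3 (chr19:34583372-34583451, plus strand), Oas3 (chr5:120777690-120777769, minus strand) and Gbp3 (chr3:142559964-142560043, plus strand), with overlapping matches run together in Gbp3. These had the smallest p among the members that held it, with members on a chromosome set aside from printing left out.
Ifit3: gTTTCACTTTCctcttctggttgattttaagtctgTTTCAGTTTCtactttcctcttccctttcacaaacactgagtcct
Oas3: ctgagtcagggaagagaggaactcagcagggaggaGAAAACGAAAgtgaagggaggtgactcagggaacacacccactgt
Gbp3: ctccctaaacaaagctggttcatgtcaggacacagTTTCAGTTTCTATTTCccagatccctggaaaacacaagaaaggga
Ifit3 was at 1.96, 2.15 and 2.77 FPKM in WT and at 1.12, 0.688 and 1.499 FPKM in KO. Gbp3, an interferon-induced GTPase gene, was at 13.7, 13.3 and 12.1 against 9.51, 11.2 and 8.90 FPKM. For both, the groups did not overlap.

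Antigen presentation genes lay in the same direction. Of 18 class I genes, 16 were below 0 with a median of -0.17 log2, and 7 had KO libraries all below WT (7.47% of all genes tested). When KO replicate 2 was left out, 15 were below 0 with a median of -0.14, and after rescaling 12 were below 0 with a median of -0.09. Psmb9 and Psmb8 are interferon-inducible subunits of the immunoproteasome. Psmb9 was at 64.5, 59.6 and 54.7 FPKM in WT and 49.3, 43.5 and 43.7 FPKM in KO (-0.38 log2, adjusted p = 0.292), and Psmb8 at 175, 136 and 133 against 123, 114 and 120 FPKM. The heavy chain genes H2-K1 and H2-D1, at 802 to 913 and 442 to 528 FPKM over the 6 libraries, differed by -0.08 and -0.07 log2.

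The class II genes had larger differences and wider spread: of 10 tested, 8 were below 0 with a median of -0.51 log2, and none had separate groups. The median was -0.32 without WT replicate 2 and -0.33 without KO replicate 3, and without KO replicate 2 it was -0.68 with 9 below 0. H2-Eb1 was at 83.5, 70.9 and 33.0 FPKM in WT and at 34.9, 27.0 and 11.4 FPKM in KO (-1.35 log2, SE 0.42, adjusted p = 0.336). Cd74, the invariant chain that escorts class II molecules, was at 120, 113 and 53.6 against 58.1, 50.2 and 21.7 FPKM (-1.15 log2, adjusted p = 0.37). H2-Aa and H2-Ab1 had the same pattern, with replicate 3 the lowest library of each group. The genes that load peptide on class II molecules were closer to 0: H2-DMa differed by -0.13 and H2-DMb1 by -0.26 log2. Markers of other cells that present antigen on class II went in both directions. The B cell marker Cd79a was at 0.591 to 2.62 FPKM in WT and 0.0665 to 0.57 FPKM in KO, while Pax5 was at or near 0 in every library and highest in a KO library (0.0417 FPKM). Among the 3 B cell genes tested, Vpreb1 and Vpreb3 were at -1.03 and -1.10 log2 and Cd79b at -0.01. The summed level of the macrophage markers C1qa, C1qb, C1qc and Adgre1 was 5.07 to 8.94 FPKM in WT and 1.81 to 4.88 FPKM in KO, although Adgre1 alone was higher in every KO library. Of 9 macrophage genes tested, 5 were above 0 with a median of 0.01 log2, with Axl at 0.73, Cd68 at 0.54 and Lyz2 at 0.01. The part of such cells in the class II values was not tested.

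**Figure D3:**
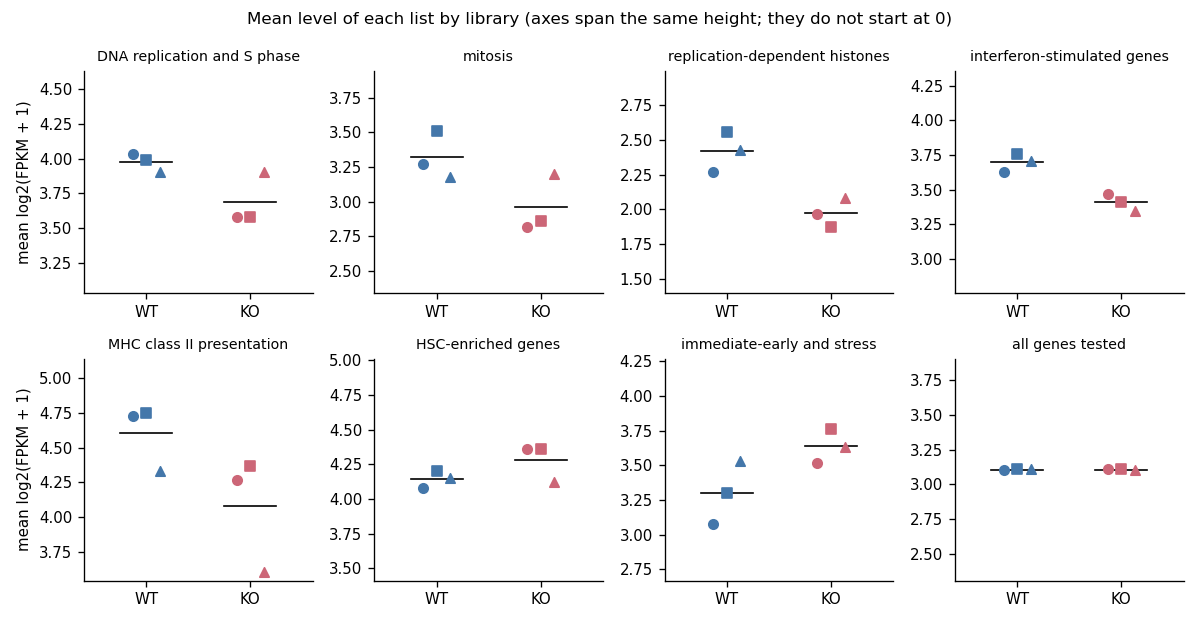
Mean log2(FPKM + 1) over the tested members of 7 lists and over all genes tested, by library (circle, square and triangle for replicates 1, 2 and 3; WT blue, KO red; black bars are group means). The axes span the same height but do not start at 0; the KO libraries lie below all WT libraries for interferon-stimulated genes and replication-dependent histones, and KO replicate 3 lies within the WT range for mitosis.

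Genes enriched in HSCs were on the higher side. Of 44 tested, 33 were above 0 (49.6% of all genes tested) with a median of 0.14 log2, and 12 had KO libraries all above WT libraries (8.61% of all genes tested) and none all below (7.47%). None passed the test. Kit, the receptor for stem cell factor, was at 97.1, 114 and 122 FPKM in WT and at 150, 159 and 154 FPKM in KO (0.48 log2, SE 0.10, adjusted p = 0.2). Esam, an adhesion molecule of HSCs and endothelium, was at 48.0, 51.7 and 54.8 against 65.6, 82.5 and 76.0 FPKM (0.52 log2, adjusted p = 0.2). Tek, the angiopoietin receptor, was at 3.34, 2.86 and 2.30 against 5.14, 5.06 and 4.18 FPKM (0.60 log2, adjusted p = 0.253). In each of these the lowest KO library was above the highest WT library. Ly6a, which encodes the sorting antigen Sca-1 and responds to interferon, went the other way, at 173, 217 and 198 against 182, 136 and 119 FPKM (-0.44 log2, adjusted p = 0.383), and its groups overlapped. Among the library means of the list, KO replicate 3 (4.12) lay within the WT range (4.08 to 4.20) and the other 2 KO libraries were at 4.36. The count below 0 was 16 of 44 and the median 0.08 without KO replicate 2.

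Inhibitors of the cell cycle and regulators of quiescence did not share a direction, with 12 of 20 above 0 and a median of 0.09 log2. Without KO replicate 2 these were 10 of 20 and 0.01, and without WT replicate 1 the median was also 0.01. Foxo3, a transcription factor needed for HSC quiescence, was at 11.9, 14.3 and 14.7 FPKM in WT and at 16.5, 19.4 and 18.5 FPKM in KO (0.39 log2, adjusted p = 0.342). Cdkn1b, which encodes p27, differed by -0.11 and Cdkn1a, which encodes p21, by 0.14 log2. A list of 22 genes held Trp53, the gene of p53, and genes that p53 activates. Of these, 15 were above 0 with a median of 0.11 log2 (17 without KO replicate 2, with the same median). Trp53 was at 65.2 to 71.0 FPKM in WT and 67.2 to 72.1 FPKM in KO.

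Immediate-early and stress genes were higher in KO as a group, with 27 of 33 above 0 and a median of 0.28 log2. None passed the test. Fos was at 1.96, 2.76 and 12.0 FPKM in WT and at 9.62, 16.8 and 18.6 FPKM in KO (1.56 log2, SE 0.49, adjusted p = 0.342), and Jun at 3.32, 5.55 and 13.7 against 9.50, 17.3 and 17.2 FPKM. WT replicate 3 overlapped the KO libraries for both, and its list mean (3.53) was above that of KO replicate 1 (3.52). Ier3, an early response gene that affects survival, had separate groups, at 27.9, 35.4 and 32.2 against 44.1, 60.2 and 50.9 FPKM (0.68 log2, adjusted p = 0.195). These genes also respond to cell handling, and the part of sorting and dissociation in the difference was not tested. Of the 33, 26 were above 0 without KO replicate 2, with a median of 0.22.

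Lineage genes showed no common direction. Among 21 granulocyte and monocyte progenitor genes 12 were above 0 with a median of 0.01 log2 and Prtn3 alone passed the test. Without KO replicate 2 these were 12 and 0.08, and over all libraries left out in turn the median ranged from -0.01 to 0.09. Elane, which encodes neutrophil elastase and lies beside Prtn3 (chr10:79879667-79883174 for Prtn3 and chr10:79886312-79888216 for Elane, GRCm38.p6), stood on the opposite side, at 208, 119 and 148 FPKM in WT and at 95.5, 51.2 and 30.1 FPKM in KO (-1.53 log2, SE 0.36, adjusted p = 0.225). Mpo, which encodes myeloperoxidase, was at 211, 136 and 88.8 against 147, 63.6 and 76.7 FPKM with overlap. Csf3r, the receptor for G-CSF, was at 6.81, 8.30 and 10.1 against 12.1, 13.8 and 11.3 FPKM (0.52 log2, adjusted p = 0.318). The neighbouring granule genes Prtn3 and Elane thus stood on opposite sides. The summed level of the neutrophil markers S100a8, S100a9, Ltf, Ngp and Camp was 5298 to 7147 FPKM in WT and 4107 to 5227 FPKM in KO. Ltf among them differed by 0.09 log2. Of 17 mature neutrophil genes tested, 9 were above 0 and 8 below. Their mean log2(FPKM + 1) was 5.09, 5.40 and 5.05 in WT and 5.41, 5.62 and 5.38 in KO. The part of neutrophil RNA in the values of Prtn3, Elane and the other progenitor genes was not tested.

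Of 26 erythroid genes, 18 were below 0 with a median of -0.17 log2. The median was -0.04 without WT replicate 1 (15 below 0), -0.33 without WT replicate 2 (21 below 0), -0.27 without KO replicate 1 and -0.18 without KO replicate 2 (17 below 0), and after rescaling it was -0.11 with 15 below 0. Car1 was at 178, 125 and 62.0 FPKM in WT and at 52.8, 57.4 and 35.6 FPKM in KO (-1.21 log2, adjusted p = 0.293), while Car2, another carbonic anhydrase gene, was at 553, 540 and 515 against 688, 680 and 698 FPKM (0.36 log2, adjusted p = 0.2). Both had separate groups, in opposite directions. Haemoglobin RNA varied within the groups, with Hba-a1 at 88.9 to 243 FPKM in WT and 65.4 to 184 FPKM in KO. Of 25 megakaryocyte and platelet genes, 15 were above 0 with a median of 0.02 log2. In 6 the KO libraries were all above WT (8.61% of all genes tested) and in 3 all below (7.47%). Without KO replicate 2, 13 were above 0 with a median of 0.03, and the medians without each other library ranged up to 0.11, without WT replicate 1. Gp9, a subunit of the von Willebrand factor receptor, was at 51.1, 40.6 and 47.2 against 67.9, 82.0 and 67.1 FPKM (0.63 log2, adjusted p = 0.184). Itga2b, the integrin CD41, was at 13.6, 8.84 and 10.9 against 15.0, 23.9 and 18.2 FPKM (0.72 log2, adjusted p = 0.279), and Vwf, a marker of platelet-biased HSCs, differed by -0.18 log2 with overlap.

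The same contrast was available in HSCs that had lost the label (GFP-low) and in GFP-high multipotent progenitors (MPPs), each with 3 WT and 3 KO libraries of its own; whether the populations came from the same mice was not stated. As KO replicate 2 was the library with Y-linked RNA in each of the 3 populations, values of the populations are not taken as independent of each other. In neither did a gene pass limma's test: 0 of 10705 in GFP-low HSCs, with 917 at an unadjusted p under 0.05 (8.57%), and 0 of 10789 in GFP-high MPPs, with 765 (7.09%). The difference between the KO effects was tested directly. No gene passed for GFP-high against GFP-low HSCs (0 of 10501, with 352 at an unadjusted p under 0.05, 3.35%) or against GFP-high MPPs (0 of 10512, with 288, 2.74%). These fits treat the libraries of different populations as unrelated, and with genotype and replicate number as a block 0 genes passed for either difference, with 564 and 576 at an unadjusted p under 0.05. In the fits without the block the median half-width of a gene's 95% interval was 0.51 and 0.48 log2.

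The 2 protein-coding genes past the test in GFP-high HSCs stood higher in KO in the other populations too. Prtn3 was 0.88 log2 higher in KO in GFP-low HSCs (95% interval 0.53 to 1.24, adjusted p = 0.168) and 0.64 higher in GFP-high MPPs (0.33 to 0.95, adjusted p = 0.381). The effect on Prtn3 in GFP-high HSCs minus that in GFP-low HSCs was -0.13 (-0.52 to 0.27), and minus that in MPPs 0.12 (-0.22 to 0.45). Ptgds differed by 1.22 and 0.99, and the same 2 subtractions gave -0.02 (-0.89 to 0.85) and 0.22 (-0.36 to 0.79), so sizeable differences between populations remain possible. Gstm2 differed by 1.10 (0.37 to 1.83) and 1.15 (0.67 to 1.64), and Dok2 by 1.13 (0.79 to 1.46) and 1.02 (0.70 to 1.34). For these 4 genes every 95% interval lay above 0 in each population. The level of Gstm2 differed between populations, at 7.18 to 13.6 FPKM in WT GFP-low HSCs and at 0.488 to 1.07 FPKM in WT GFP-high MPPs. Nenf was at -0.64, 0.03 and -0.61 log2 for GFP-high HSCs, GFP-low HSCs and MPPs, with an unadjusted p of 0.00261 for the first difference and an adjusted p of 0.999. H1f1 was at -1.11, -0.11 and -0.61 log2 in the same order (adjusted p = 0.999 for GFP-high against GFP-low). Elane was at -1.53, -0.89 and 1.17 log2 (adjusted p = 1 for HSCs against MPPs).

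**Figure D4:**
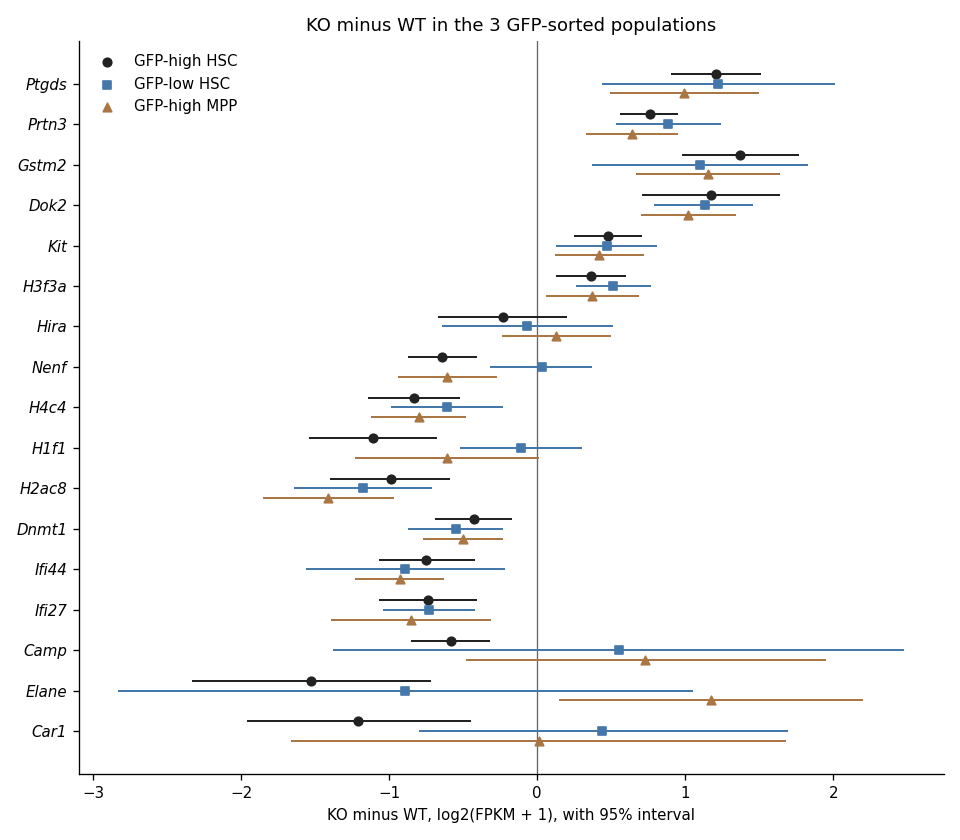
Difference KO minus WT on the log2(FPKM + 1) scale with its 95% interval for 17 genes in GFP-high HSCs (black circles), GFP-low HSCs (blue squares) and GFP-high MPPs (brown triangles), 3 WT and 3 KO libraries in each. Ptgds, Prtn3, Gstm2 and Dok2 lie above 0 in the 3 populations, and Elane lies at -1.53, -0.89 and 1.17.

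The lists had these medians side by side for GFP-high HSCs, GFP-low HSCs and GFP-high MPPs. Those of GFP-high HSCs are over all members tested there. Those of the other populations are over members also tested in GFP-high HSCs, so the member sets can differ. Interferon-stimulated genes stood at -0.25, -0.34 and -0.35 log2, with 45 of 51 members below 0 in GFP-low HSCs (50.8% of all genes tested there) and 48 of 51 in MPPs (49%). Replication-dependent histones stood at -0.47, -0.33 and -0.62, over 38, 37 and 34 genes. Mitosis genes stood at -0.37, -0.12 and -0.21, and replication genes at -0.29, -0.17 and -0.25. The replication median of GFP-high HSCs was -0.25 without KO replicate 2. The MPP median of -0.25 kept the MPP library of that number, so these 2 values are not from like sets of libraries. Whether the medians differ between populations was not tested. Erythroid genes stood at -0.17, 0.67 and 0.18 and mature neutrophil genes at 0.09, 1.02 and 0.88, where in GFP-low HSCs all 26 erythroid and all 17 neutrophil genes were above 0.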

How the data were processed

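RNA from sorted cells was purified in Trizol and amplified with SMART-Seq2, and libraries were made with Nextera XT, per the labels' protocols. STAR, DESeq2, HOMER and the build mm10 are named in the submitters' processing notes, without versions or roles. The authors deposited FPKM per gene, 1 table for each population, and tests stayed within a table except for the differences between KO effects. Values were taken as log2(FPKM + 1) and fitted with limma 3.58.1 (R 4.3.3), with an intensity trend and Benjamini-Hochberg adjustment over all genes tested. A gene needed 1 FPKM in at least 3 of 6 libraries. Differences are on this scale, which understates the change of low genes. Reads were recovered because a gene's values were whole multiples of a step within 0.01 of a read for 99.99% of genes, and counting was not stated to use strand. The fits were tested on simulated data, where false calls lay mostly among genes with few reads. Gene lists (32, of which 31 had tested members) and the comparison itself were chosen with earlier results of these data known. Named genes were those past the test, the 10 smallest p in each direction at a mean log2 of 3 or more, Hira, and up to 4 members a list by p and 2 by level. Other list members were named after their values were seen. Lists got no test. WT and KO libraries of the same replicate number were not taken as pairs in the main fits. Alternatives covered the pseudocount, filter, scaling, block, weights, trend, voom and each library left out. Values of some genes are not reported here.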

Additional observations from a re-analysis of the deposited data

How the results depend on the processing

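Of the 17 alternatives, 3 genes passed with a pseudocount of 0.1 FPKM (Stfa3 in place of Mir6999), with one of 5 FPKM and after rescaling. Both Stfa3 and Mir6999 had no read in WT and met the level filter through the KO libraries alone. With no filter 2 passed, Mir6999 and Mir7007, and Ptgds and Prtn3 did not (adjusted p = 0.125 and 0.111). With no intensity trend 4 passed, Ptgds among them, and Prtn3 did not (0.106). When only genes at 5 FPKM or more were tested 2 passed, Prtn3 and Gstm2. Array quality weights gave 5 genes, and a joint fit with GFP-low HSCs gave 0 of 10840 by limma, with 798 at an unadjusted p under 0.05. Leaving out 1 library gave 0 to 1, the single gene being Gstm2 without KO replicate 1. The cause was not tested. voom on recovered reads gave 2 (Prtn3 and Krt80). Same-numbered libraries had residual correlations of 0.098, 0.050 and -0.070, so the numbers were not taken as pairs. The replicate block gave 2 other genes, H2-Eb1 and Cd74, both lower in KO, and 0 for both differences between KO effects, with 564 and 576 genes at an unadjusted p under 0.05. These differences gave 0 under every alternative run. Rescaling moved the median of the first by 0.11 log2, and 491 genes were then at an unadjusted p under 0.05. edgeR's quasi-likelihood test was not run, because the deposited unit is FPKM. Hira stayed below 0 and short of the threshold under each alternative that tested it, from -0.04 without WT replicate 1 to -0.36 without WT replicate 3. It was too low to be tested with the filter at 5 FPKM. With a pseudocount of 0.1 and of 5 FPKM the median of the replication-dependent histones was -0.78 and -0.17. With 3 libraries a group, the median half-width of a gene's 95% interval was 0.33 log2 on the main scale.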

Other observations

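Eosinophil RNA differed widely between libraries of the same group. Prg2, the gene of eosinophil major basic protein, was at 250, 119 and 1.74 FPKM in the WT libraries and at 40.7, 555 and 193 FPKM in the KO libraries. Epx, the gene of eosinophil peroxidase, was at 15.5, 6.06 and 0.1 FPKM in WT and at 0.644, 22.1 and 6.44 FPKM in KO. WT replicate 3 and KO replicate 1 were the lowest library of their group for both.

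Mature neutrophil genes split by gene. Camp, the cathelicidin gene, was at 582, 623 and 750 FPKM in WT and at 409, 488 and 403 FPKM in KO (-0.58 log2, adjusted p = 0.195), and S100a9 was at 1795, 2203 and 2400 against 1247, 1668 and 1251 FPKM. Stfa3, a stefin gene with near-identical copies, had no read in WT and 2.14, 10.5 and 4.00 FPKM in KO (adjusted p = 0.107). It met the level filter through its KO libraries alone, so its p is that of a gene selected by its high group. Mmp8, a collagenase of neutrophil granules, was at 3.97, 5.65 and 1.54 against 10.1, 6.59 and 6.35 FPKM (adjusted p = 0.37). The list median over 17 genes was 0.09 log2, and 0.11 without KO replicate 2.

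Among 34 detoxification genes, 16 were above 0 and the median was -0.03, and 8 had KO libraries all above WT (8.61% of all genes tested). When KO replicate 2 was left out, 21 were above 0 and the median was 0.06, and after rescaling the median was 0.05. Besides Gstm2, these included Aldh1a7 (0.77 log2, adjusted p = 0.184), Gsta4 (0.59, adjusted p = 0.2) and Gstm1 (0.56, adjusted p = 0.32). Nqo1, a quinone reductase gene, was at 11.2, 12.7 and 16.7 FPKM in WT and at 10.0, 7.91 and 10.9 FPKM in KO (-0.45 log2). Oxidative phosphorylation genes differed by little: 63 of 74 were below 0 with a median of -0.07 log2, 48 were below 0 without KO replicate 2 (median -0.03), and after rescaling to one FPKM total 36 were below 0 and the median was 0.01. Without WT replicate 1 the median was -0.04, and without KO replicate 3 it was -0.13. Dnmt1, the maintenance DNA methyltransferase, and its partner Uhrf1 were lower in every KO library, by -0.43 and -0.57 log2 (adjusted p = 0.28 and 0.32). The 3 B cell genes tested included Vpreb1, a part of the surrogate light chain, at 3.36, 3.80 and 2.71 against 1.32, 0.830 and 1.13 FPKM (-1.03 log2, adjusted p = 0.107).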
